A study of Mus musculus with 41 samples.

Results

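The effect of losing the healthy kidney on a kidney that had been injured on the other side was read from 12 of the 41 mouse kidney libraries of the study, the 6 titled UIRI+Nx d7 and the 6 titled UIRI d7 of the first cohort. The members were taken by title alone, and every gene of the table was examined. In both groups male mice of 8 to 10 weeks were kept at a core of 34 °C while the blood supply of the left kidney was closed for 21 min and then reopened, which is unilateral ischemia-reperfusion injury (UIRI). In UIRI+Nx d7 the right kidney was taken out on day 3 (nephrectomy, Nx), so that the injured kidney was the only one left. UIRI d7 is read here as the group whose other kidney was kept after a sham operation on day 3, as the design text implies. Both groups were harvested on day 7, and the injured kidney was sequenced. The same cohort held UIRI d3, harvested on day 3, and Control, without injury, whose levels are given as context. A second cohort, whose titles carry WT, held 4 WT UIRI+Nx d7 and 6 WT UIRI d7 libraries, and the sources used here give no sex, age or operation times for it. No strain or genotype is stated for the first cohort.

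Removing one kidney makes the other do the work of both, and a kidney in this state filters more, reabsorbs more and enlarges. A kidney left injured beside a healthy partner is known to shrink and scar, while tubules that recover after ischemia regain their transporters and their fuel metabolism. Proximal tubule cells that fail to recover are known to keep a state marked by adhesion molecules and NF-kappaB genes, and leukocytes gather around them.

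Total counts ran from 5579718 to 19039076 in UIRI+Nx d7 libraries and from 5090418 to 17591854 in UIRI d7 libraries. The counts come from 3′ ends of messenger RNA and are given here as CPM, that is, scaled to a common library size with factors from edgeR (TMM). Library blocks, inferred from sample numbers and named in no label, are uneven: block 1a held 3 libraries of each group, block 1b held 1 of UIRI+Nx d7 and 3 of UIRI d7, and block 2b held UIRI+Nx d7 replicates 5 and 6 with no UIRI d7 library. UIRI d7 replicate 4 stood apart on the first principal component of the 12 libraries, at 125.8 against 31.8 for the next highest. The label of the tissue fits its markers, since the 50 proximal tubule genes, with none of them at 0 throughout, summed to 9371 to 18705 CPM in UIRI+Nx d7 and to 10802 to 21403 CPM in UIRI d7. Adrenal cortex markers summed to 18.8 to 33.6 CPM in UIRI+Nx d7 and to 18.9 to 25.2 CPM in UIRI d7. The design text gives 6 animals a group and ties no library to an animal, so p-values measure the spread between these libraries.

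After loss of the other kidney, 14 of 18 tested T and NK cell genes, 8 of 16 genes of failed tubule repair and 6 of 13 genes of class II antigen presentation were lower in UIRI+Nx d7, beside 3.46% of all genes tested. In the other direction 12 of 36 NRF2 targets, 5 of 14 genes of glucose and ammonia production and 5 of 21 genes of the distal convoluted and connecting tubule were higher, beside 3.17% of all genes tested. Of 10 genes of the mitochondrial genome 5 were higher, and in every list not named here fewer members passed than did not. Of 15701 genes tested, 1040 passed an adjusted p of 0.05 in the edgeR quasi-likelihood test, which is a background of 6.62%. Of these 497 were higher in UIRI+Nx d7 (3.17% of genes tested) and 543 were lower (3.46%). By more than 2-fold, 226 were higher and 347 were lower, and by more than 4-fold 38 were higher and 109 were lower. The libraries of the groups did not overlap for 472 of the genes tested (3.01%), and 401 of those passed the test. Log2 fold changes are of UIRI+Nx d7 over UIRI d7, and their median over all genes tested was -0.01, the value against which the medians of gene lists below are set.

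The number of genes depended on what entered the fit, being 586 with the 12 libraries alone, 663 without UIRI+Nx d7 replicates 5 and 6, and 131 within block 1a, while block 1b, with 1 library against 3, was not fitted. The number rose to 1359 with the library block as a covariate, and 943 of these were among the 1040. In DESeq2 it was 1486, which held all 1040. Leaving out UIRI+Nx d7 replicate 2 left 357 lower genes, and leaving out UIRI d7 replicate 3 left 353. With UIRI d7 replicate 4 taken out of the fit of both groups 316 genes were higher. The share of higher genes among those that passed was 47.8%, and 29.9% when counts were scaled by totals without TMM factors.

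**Figure D1:**
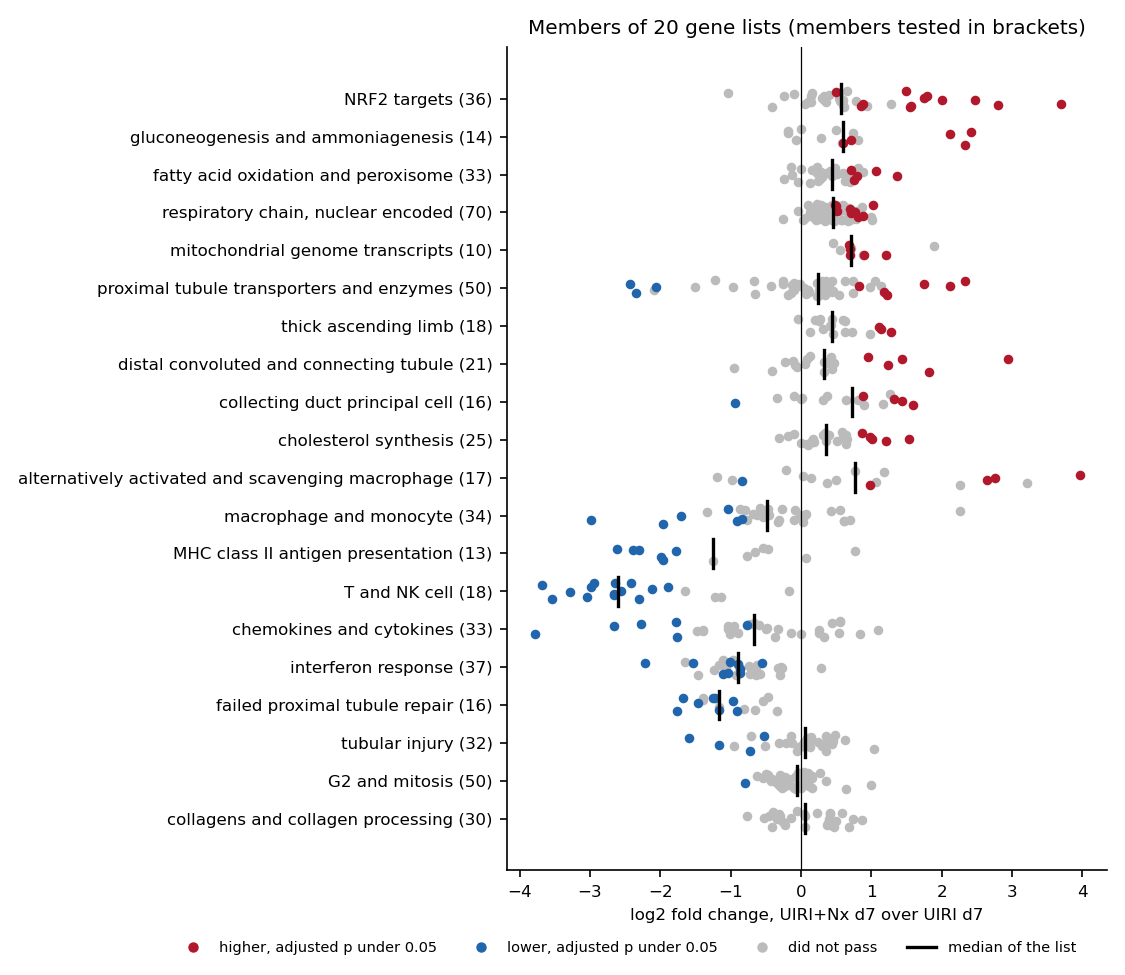
Log2 fold change between UIRI+Nx d7 and UIRI d7 for each tested member of 20 gene lists, one point a gene, red where higher and blue where lower in UIRI+Nx d7 at an adjusted p under 0.05, grey where the test was not passed, with a bar at the median of each list. T and NK cell genes lie furthest left, with a median of -2.60, and the members that passed among the NRF2 targets lie right of 0.

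Of all lists the lowest median belonged to the genes of T cells and natural killer cells, the lymphocytes that recognise antigen and kill target cells. Of 25 markers 18 passed the filter on low counts, 14 of these were lower in UIRI+Nx d7 and 0 were higher, and their median log2 fold change was -2.60. Trbc2, a constant region of the T cell receptor, had 0.17 to 2.55 CPM (median 0.474) in UIRI+Nx d7 libraries, against 3.44 to 11.5 CPM (median 6.69) in UIRI d7 libraries (log2 fold change -3.04, SE 0.51, adjusted p = 0.000467). No UIRI+Nx d7 library reached the lowest UIRI d7 library, and replicate 1, at 2.55 CPM, was the highest of the nephrectomised group. Trac, the constant region of the partner chain, had 0.217 to 3.02 CPM (median 0.855) in UIRI+Nx d7 against 1.93 to 11.2 CPM (median 7.97) in UIRI d7 (log2 fold change -2.64, SE 0.42, adjusted p = 0.000324). Its groups overlapped through UIRI d7 replicate 5, which at 1.93 CPM was the lowest of its group. Cd4, the co-receptor of helper T cells, had 0 to 0.51 CPM (median 0.158) in UIRI+Nx d7 against 1.26 to 3.08 CPM (median 2.63) in UIRI d7 (log2 fold change -3.68, SE 0.54, adjusted p = 0.000116), with no overlap at a level of few counts.

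Ccl5, a chemokine that T cells make and follow, had 2 to 6.8 CPM (median 3.48) in UIRI+Nx d7 against 8.04 to 33.5 CPM (median 27.2) in UIRI d7 (log2 fold change -2.66, SE 0.34, adjusted p = 2.15e-05), and all UIRI+Nx d7 libraries lay below all UIRI d7 libraries. Cd3e, a signalling chain of the T cell receptor, did not pass the filter on low counts, with 0 to 0.699 CPM (median 0.162) in UIRI+Nx d7 against 0.491 to 1.73 CPM (median 1.14) in UIRI d7. The summed level of the 25 markers was 19.9 to 50.9 CPM in UIRI+Nx d7 and 51.2 to 147 CPM in UIRI d7, without overlap. In bulk tissue fewer cells of a type and less RNA per cell cannot be told apart. The medians of Trbc2 were 1.35 CPM in UIRI d3 and 1.94 CPM in Control, so that UIRI d7 held the highest level of the 4 groups. Of the other blood cells, 2 of 8 tested B and plasma cell genes were lower, none of the 10 tested neutrophil genes passed, and none of the 7 tested red blood cell genes passed, with a median of -1.38. At an unadjusted p under 0.05 edgeR had 1 neutrophil gene lower, and 2 red blood cell genes lower and 1 higher, and DESeq2 called 0 neutrophil genes and 1 lower red blood cell gene. Leaving out UIRI+Nx d7 replicate 2 or UIRI d7 replicates 3 or 4 left 1 lower B cell gene, and without UIRI+Nx d7 replicate 4 there were 5 lower red blood cell genes. The hemoglobin share of counts was 0.000824% to 0.0819% in UIRI+Nx d7 and 0.0112% to 0.171% in UIRI d7 (adjusted p = 0.409, two-sided exact permutation test), and its part in these results was not tested.

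Genes of the class II pathway, by which macrophages, dendritic cells and B cells show peptides to helper T cells, were lower in part. Of 13 tested, 6 were lower and 0 were higher, with a median log2 fold change of -1.25. H2-Eb1, a class II beta chain, had 28.7 to 128 CPM (median 80.7) in UIRI+Nx d7, against 191 to 581 CPM (median 439.5) in UIRI d7 (log2 fold change -2.39, SE 0.34, adjusted p = 8.18e-05), and the groups did not overlap. H2-Aa, a class II alpha chain, had 14.4 to 114 CPM (median 72.6) in UIRI+Nx d7 against 126 to 395 CPM (median 282) in UIRI d7 (log2 fold change -1.97, SE 0.40, adjusted p = 0.00295), again without overlap. Cd74, the invariant chain that guards the peptide groove, had 32.9 to 129 CPM (median 80.5) in UIRI+Nx d7 against 112 to 778 CPM (median 382) in UIRI d7 (log2 fold change -2.30, SE 0.43, adjusted p = 0.0014). Its groups overlapped, since UIRI d7 replicate 5, at 112 CPM, lay below the highest UIRI+Nx d7 library. H2 genes are similar in sequence, and reads can be split between them. H2-Eb1 had medians of 74.3 CPM in UIRI d3 and 116 CPM in Control, inside the range of UIRI+Nx d7 and below every UIRI d7 library.

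Macrophage and monocyte genes moved in both directions. Of 34 tested markers of the lineage 6 were lower and 0 were higher, with a median of -0.48, whereas of 17 tested genes of alternatively activated and scavenging macrophages 4 were higher and 1 was lower, with a median of 0.77. Without UIRI+Nx d7 replicates 5 and 6, 3 of the lineage markers were lower and the lower scavenging gene was no longer called. Ly6c2, carried by inflammatory monocytes, had 0.166 to 0.696 CPM (median 0.235) in UIRI+Nx d7 against 1.62 to 4.74 CPM (median 2.77) in UIRI d7 (log2 fold change -2.99, SE 0.45, adjusted p = 0.000133). Cx3cr1, the fractalkine receptor of resident kidney macrophages, had 49.2 to 142 CPM (median 102) in UIRI+Nx d7 against 171 to 623 CPM (median 279) in UIRI d7 (log2 fold change -1.71, SE 0.35, adjusted p = 0.00331). Aif1, a calcium-binding protein of macrophages, had 13.6 to 37.6 CPM (median 25.5) in UIRI+Nx d7 against 41.3 to 179.6 CPM (median 87.3) in UIRI d7 (log2 fold change -1.96, SE 0.36, adjusted p = 0.00134). For all 3 genes every UIRI+Nx d7 library was below every UIRI d7 library. Adgre1, which encodes F4/80, had 7.49 to 16 CPM (median 11.7) in UIRI+Nx d7 against 13.9 to 43.9 CPM (median 22.6) in UIRI d7 (log2 fold change -1.04, SE 0.27, adjusted p = 0.0175), with overlap. Without UIRI d7 replicate 6 its adjusted p was 0.0536, and without UIRI+Nx d7 replicates 5 and 6 it was 0.0811.

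On the other side, Lyve1, a receptor for hyaluronan on lymphatic vessels and on a class of tissue macrophages, had 1.55 to 14.9 CPM (median 8.12) in UIRI+Nx d7, against 0.173 to 1.04 CPM (median 0.475) in UIRI d7 (log2 fold change 3.96, SE 0.53, adjusted p = 3.82e-05). Its lowest nephrectomised library, replicate 1, was still above every UIRI d7 library. Of the 7 tested lymphatic endothelium genes Lyve1 was the one that passed, and the 8 lymphatic markers summed to 127 to 253 CPM in UIRI+Nx d7 and to 179 to 308 CPM in UIRI d7. Arg1, which turns arginine into urea and ornithine, had 17.2 to 108 CPM (median 50) in UIRI+Nx d7 against 2.76 to 15.9 CPM (median 7.9) in UIRI d7 (log2 fold change 2.76, SE 0.53, adjusted p = 0.00166), without overlap. Cd163, the scavenger receptor for hemoglobin bound to haptoglobin, had 5.72 to 81.4 CPM (median 33.4) in UIRI+Nx d7 against 3.44 to 11.5 CPM (median 4.58) in UIRI d7 (log2 fold change 2.64, SE 0.49, adjusted p = 0.00126). Replicate 1 of UIRI+Nx d7 was again the lowest and lay within the range of UIRI d7. Msr1, another scavenger receptor, had 20.5 to 66 CPM (median 36.9) in UIRI+Nx d7 against 15.9 to 24.9 CPM (median 20.6) in UIRI d7 (log2 fold change 0.98, SE 0.23, adjusted p = 0.00924). The groups overlapped for Msr1, and with the 12 libraries alone its adjusted p was 0.0532. The mannose receptor Mrc1 did not pass, at a log2 fold change of 0.50. Mgl2, a lectin of dendritic cells and macrophages described below, was lower in UIRI+Nx d7.

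Chemokines, cytokines and interferon genes fell where they changed. Of 33 tested chemokine and cytokine genes 6 were lower and 0 higher, with a median of -0.67, and of 37 interferon response genes 9 were lower and 0 higher, with a median of -0.89. The interferon count was 5 without UIRI+Nx d7 replicate 2, 4 without replicate 5 and 2 without replicates 5 and 6, and the chemokine count was 2 without replicates 5 and 6. Cxcl9, which draws T cells and is induced by interferon gamma, had 0 to 5.1 CPM (median 0.156) in UIRI+Nx d7 against 2.95 to 43.9 CPM (median 8.78) in UIRI d7 (log2 fold change -3.79, SE 0.87, adjusted p = 0.00814). Replicate 1 was the highest library of both groups for this gene, and UIRI+Nx d7 replicate 1, at 5.1 CPM, lay inside the range of UIRI d7. Cxcl10, a ligand of the same receptor, had 1.8 to 17.9 CPM (median 3.75) in UIRI+Nx d7 against 6.66 to 78 CPM (median 18.3) in UIRI d7 (log2 fold change -2.27, SE 0.53, adjusted p = 0.00877), with replicate 1 again highest in both groups. Without UIRI+Nx d7 replicates 5 and 6 neither Cxcl9 (adjusted p = 0.0552) nor Cxcl10 (adjusted p = 0.0607) passed. Cxcl2, which draws neutrophils, had 4.24 to 16.1 CPM (median 8.34) in UIRI+Nx d7 against 8.61 to 52.9 CPM (median 32.2) in UIRI d7 (log2 fold change -1.76, SE 0.38, adjusted p = 0.00551).

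Gbp5, a guanylate-binding protein of host defence, had 3.58 to 9.66 CPM (median 5.25) in UIRI+Nx d7 against 6.89 to 36.8 CPM (median 13.6) in UIRI d7 (log2 fold change -1.53, SE 0.34, adjusted p = 0.00587). Rsad2, the antiviral enzyme viperin, had 42.7 to 96 CPM (median 53.7) in UIRI+Nx d7 against 78.2 to 159 CPM (median 122) in UIRI d7 (log2 fold change -0.90, SE 0.22, adjusted p = 0.0124). Both genes overlapped between the groups, and Rsad2 had an adjusted p of 0.0735 without UIRI+Nx d7 replicates 5 and 6. Of 27 tested complement and coagulation genes 2 were lower and 1 was higher. C3, the central component of complement, had 157 to 428 CPM (median 222) in UIRI+Nx d7 against 447 to 1051 CPM (median 590.1) in UIRI d7 (log2 fold change -1.49, SE 0.40, adjusted p = 0.0234), without overlap. Its adjusted p moved to between 0.0561 and 0.0596 when UIRI+Nx d7 replicates 2 or 5 or UIRI d7 replicates 3 or 4 were left out in turn, and to 0.104 without UIRI+Nx d7 replicates 5 and 6. C4b, of the same cascade, had 14.6 to 25.6 CPM (median 20.5) in UIRI+Nx d7 against 35.4 to 63.8 CPM (median 48) in UIRI d7 (log2 fold change -1.21, SE 0.32, adjusted p = 0.0199), and its adjusted p was 0.0512 without UIRI+Nx d7 replicate 2 and 0.0552 without UIRI d7 replicate 3. No complement gene of the list was lower without UIRI+Nx d7 replicates 5 and 6.

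Genes that mark proximal tubule cells after failed repair were lower in part. Of 16 tested, 8 were lower, 0 were higher, and the median was -1.17. Vcam1, an adhesion molecule for leukocytes, had 122 to 206 CPM (median 159) in UIRI+Nx d7 (ENSMUSG00000027962, chromosome 3, 116109949 to 116129688 in GRCm38), against 341 to 712 CPM (median 506) in UIRI d7 (log2 fold change -1.68, SE 0.22, adjusted p = 2.92e-05). The highest UIRI+Nx d7 library stood well below the lowest UIRI d7 library. Icam1, a second adhesion molecule, had 12.9 to 36.3 CPM (median 18.4) in UIRI+Nx d7 against 36.7 to 68.6 CPM (median 48.3) in UIRI d7 (log2 fold change -1.25, SE 0.25, adjusted p = 0.00225). Relb, a subunit of NF-kappaB, had 15 to 19.5 CPM (median 17.9) in UIRI+Nx d7 against 24.6 to 54.2 CPM (median 43.1) in UIRI d7 (log2 fold change -1.22, SE 0.22, adjusted p = 0.000935). Sema5a, a guidance protein, had 101 to 164 CPM (median 131) in UIRI+Nx d7 against 232 to 472 CPM (median 261) in UIRI d7 (log2 fold change -1.17, SE 0.21, adjusted p = 0.00103). None of these genes overlapped between the groups, and UIRI d7 replicate 4 was the highest library for Sema5a. Vcam1 had a median of 391 CPM in UIRI d3 and 27.2 CPM in Control, so that UIRI+Nx d7 lay below both injured groups and above uninjured kidney.

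Genes of acute tubular injury behaved unevenly, with 4 of 32 lower, 0 higher and a median of 0.06, a median that was -0.03 when counts were scaled by totals alone. The lower count was 2 without any of UIRI+Nx d7 replicates 2, 3 or 4 or UIRI d7 replicates 1, 2 or 3. Havcr1, which encodes KIM-1, had 76.8 to 343 CPM (median 238) in UIRI+Nx d7 against 189.6 to 894 CPM (median 745) in UIRI d7 (log2 fold change -1.59, SE 0.35, adjusted p = 0.00668). Its groups overlapped through UIRI d7 replicate 4, at 189.6 CPM. Cd44, a hyaluronan receptor of injured and regenerating tubules, had 39.3 to 50.9 CPM (median 48.8) in UIRI+Nx d7 against 48 to 161 CPM (median 103) in UIRI d7 (log2 fold change -1.17, SE 0.22, adjusted p = 0.00163). Its groups overlapped through UIRI d7 replicate 4, at 48 CPM. Lcn2, which encodes NGAL, did not pass, with 68.9 to 445 CPM (median 210.0) in UIRI+Nx d7 and 47.5 to 218 CPM (median 108) in UIRI d7 (log2 fold change 1.04, SE 0.49, adjusted p = 0.218). Sox9, a transcription factor of regenerating tubule cells, also did not pass, with 107 to 214 CPM (median 156) in UIRI+Nx d7 and 126 to 224 CPM (median 194) in UIRI d7 (log2 fold change -0.21, SE 0.24, adjusted p = 0.695). The cell cycle inhibitor Cdkn1a did not pass, with 48.8 to 116 CPM (median 94) in UIRI+Nx d7 and 42.5 to 109 CPM (median 54.1) in UIRI d7 (log2 fold change 0.44, SE 0.23, adjusted p = 0.279).

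**Figure D2:**
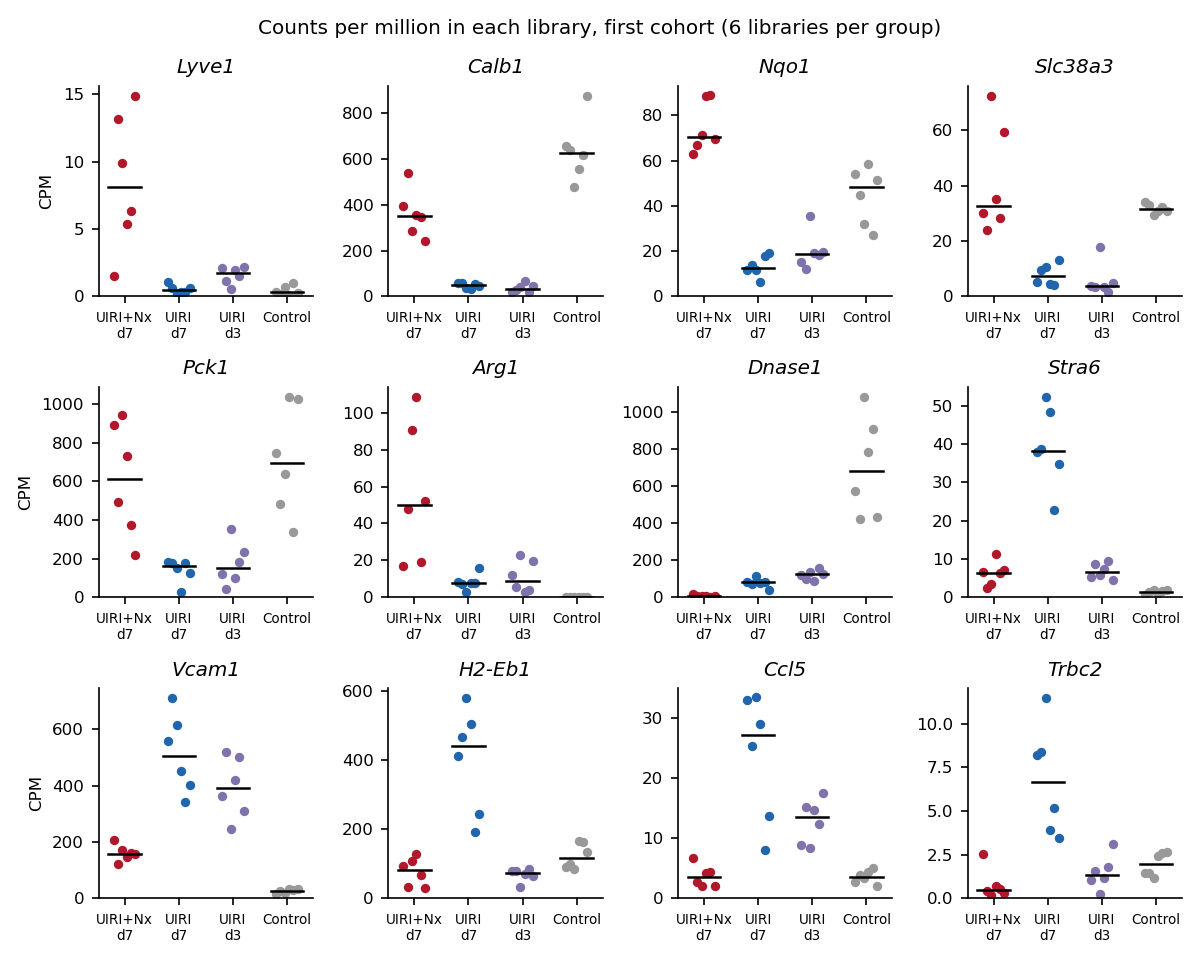
CPM of 12 genes in each first-cohort library, one point a library, with a bar at the median of the 6 libraries of UIRI+Nx d7, UIRI d7, UIRI d3 and Control. Lyve1, Calb1, Nqo1, Slc38a3, Pck1 and Arg1 were higher in UIRI+Nx d7 than in UIRI d7 in every library, and Dnase1, Stra6, Vcam1, H2-Eb1, Ccl5 and Trbc2 were lower in every library.

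The proximal tubule makes glucose and ammonia, and some genes of those pathways rose. Of 14 tested, 5 were higher, 0 were lower, and the median was 0.59, with 3 higher without UIRI d7 replicate 1 or 2. Slc38a3, the transporter that brings glutamine into the cell for ammonia production, had 23.9 to 72.5 CPM (median 32.6) in UIRI+Nx d7, against 4.17 to 13.3 CPM (median 7.29) in UIRI d7 (log2 fold change 2.41, SE 0.42, adjusted p = 0.000811). Pck1, the enzyme that commits oxaloacetate to glucose synthesis, had 219 to 942 CPM (median 613) in UIRI+Nx d7 against 25.8 to 180.4 CPM (median 164) in UIRI d7 (log2 fold change 2.12, SE 0.45, adjusted p = 0.0045). G6pc, which releases free glucose, had 38.3 to 267 CPM (median 131) in UIRI+Nx d7 against 22.4 to 36.3 CPM (median 25.9) in UIRI d7 (log2 fold change 2.34, SE 0.30, adjusted p = 2.46e-05). In all 3 genes the groups did not overlap, and UIRI d7 replicate 4 was the lowest library for Pck1. The Control medians were 31.6 CPM for Slc38a3, 694 CPM for Pck1 and 144 CPM for G6pc, levels inside the range of UIRI+Nx d7.

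Gldc, the decarboxylase of the glycine cleavage system, had 49.6 to 507 CPM (median 142) in UIRI+Nx d7 (chromosome 19, 30098447 to 30175429 in GRCm38), against 4.94 to 43.4 CPM (median 11) in UIRI d7 (log2 fold change 3.47, SE 0.59, adjusted p = 0.000552). Replicate 4 of UIRI+Nx d7 was far above the rest, and without overlap even the lowest library of its group exceeded the highest of UIRI d7. Control kidneys had a median of 40.5 CPM and a highest library of 83.3 CPM. Prodh, the first enzyme of proline breakdown, had 61.4 to 221 CPM (median 115) in UIRI+Nx d7 against 19 to 54.7 CPM (median 27.6) in UIRI d7 (log2 fold change 2.15, SE 0.26, adjusted p = 1.41e-05), without overlap. Slc6a19, the transporter that recovers neutral amino acids from the filtrate, had 148 to 595 CPM (median 299) in UIRI+Nx d7 against 52.1 to 161 CPM (median 80.5) in UIRI d7 (log2 fold change 1.75, SE 0.31, adjusted p = 0.000921), with overlap through UIRI d7 replicate 5 alone.

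Fatty acid oxidation, the main fuel of the proximal tubule, followed, with 5 of 33 genes higher, 0 lower and a median of 0.44, and with 3 higher without UIRI+Nx d7 replicate 5 or UIRI d7 replicate 2. Cpt1a, which admits fatty acids to mitochondria, had 246 to 353 CPM (median 273) in UIRI+Nx d7 against 123 to 243 CPM (median 168) in UIRI d7 (log2 fold change 0.76, SE 0.17, adjusted p = 0.00793). Acot12, a thioesterase that releases acetate from acetyl coenzyme A, had 39.1 to 86.6 CPM (median 49.4) in UIRI+Nx d7 against 23.1 to 30.2 CPM (median 25.5) in UIRI d7 (log2 fold change 1.07, SE 0.18, adjusted p = 0.000629). Both genes separated the groups without overlap. Ppara, the nuclear receptor that switches on this pathway, had 34.3 to 146 CPM (median 56.9) in UIRI+Nx d7 against 16.7 to 36.5 CPM (median 23.4) in UIRI d7 (log2 fold change 1.55, SE 0.31, adjusted p = 0.00273), with a narrow overlap. The overlap joins UIRI+Nx d7 replicate 5, the lowest of its group, and UIRI d7 replicate 4, the highest of the other.

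Of 70 nuclear genes of the respiratory chain 9 were higher, 0 were lower and the median was 0.46, and of 10 tested genes of the mitochondrial genome 5 were higher, 0 were lower and the median was 0.71. With the 12 libraries alone 2 of the 70 and 2 of the 10 passed, and leaving out any one of UIRI+Nx d7 replicates 1, 2, 4 or 5 or UIRI d7 replicates 2, 3 or 5 left 2 to 4 of the 70. Ndufa10, a subunit of complex I, had 181 to 271 CPM (median 222) in UIRI+Nx d7 against 126 to 159.9 CPM (median 135) in UIRI d7 (log2 fold change 0.71, SE 0.14, adjusted p = 0.00257). The mitochondrial gene mt-Nd1, of the same complex, had 4769 to 7936 CPM (median 6763) in UIRI+Nx d7 against 1600.0 to 4265 CPM (median 2675) in UIRI d7 (log2 fold change 1.22, SE 0.22, adjusted p = 0.00126). Another complex I gene, mt-Nd5, had 451 to 745 CPM (median 569) in UIRI+Nx d7 against 332 to 393 CPM (median 353) in UIRI d7 (log2 fold change 0.70, SE 0.16, adjusted p = 0.00793). The groups did not overlap for these genes. Mitochondrial transcripts took 4.62% ± 0.896 of counts in UIRI+Nx d7 and 2.77% ± 0.577 in UIRI d7 (SD, n = 6 each, p = 0.00649, adjusted p = 0.0390 over 6 library measures, two-sided exact permutation test). Its adjusted p was above 0.05, and at most 0.0779, without any of UIRI+Nx d7 replicates 1, 2, 3 or 5 or UIRI d7 replicates 2 to 6. Within block 1a the 3 UIRI+Nx d7 libraries held 4.53% to 5.66% and the 3 UIRI d7 libraries 2.27% to 3.85%. This share can also move with the quality of RNA, whose part in the result was not tested, and 1022 genes passed when mitochondrial transcripts were left out of the counts.

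**Figure D3:**
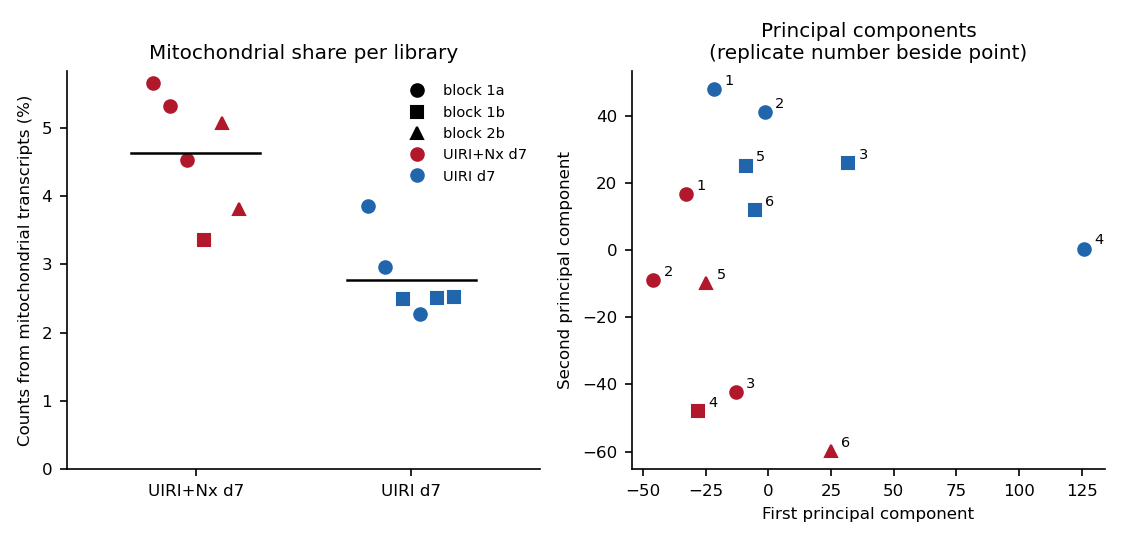
Left, percent of counts from mitochondrial transcripts in each UIRI+Nx d7 and UIRI d7 library, with a bar at the group mean. Right, the first (32.6% of variance) and second (19.3%) principal components of the same 12 libraries with replicate numbers, where UIRI d7 replicate 4 lies alone at the right. Symbols show the inferred library block.

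Targets of NRF2, the transcription factor that answers oxidants by binding the antioxidant response element, rose in part. Of 36 tested, 12 were higher, 0 were lower and the median was 0.57, and 32 had a positive fold change. The promoter windows of RefSeq (GRCm38.p6, 250 bases before to 50 after the start) were searched on both strands for TGACNNNGC, the core of that element. Of the 12 members that passed, 11 had a window and 4 held the core (Abcc2, Abcc4, Gsta3 and Srxn1), beside 14% of the 27025 genes with a window. By window, 5 of their 13 held it, beside 12.4% of all 32851 windows. The same search of the 3 circadian genes that passed, for CACGTG and for TTANNTAA, found neither in their 3 windows, beside 7.15% of all windows for CACGTG and 6% for TTANNTAA. Those of Abcc2, Gsta3 and Srxn1 are shown to let the element be seen near the RefSeq start of measured genes, with the core in capitals. A match is a description of letters alone. They lie at chr19:43782058-43782357 on the plus strand, chr1:21240335-21240634 on the plus strand and chr2:152105274-152105573 on the plus strand. The first base of the core is 98 bases before the RefSeq start in Abcc2 and 121 bases before it in Gsta3. In Srxn1 the core lies on the opposite strand, so that its capitals read as the reverse complement, and begins 28 bases after the start. The GENCODE annotation starts Abcc2 further upstream, at 43782192, so that by it the core of Abcc2 lies inside the gene.
Abcc2: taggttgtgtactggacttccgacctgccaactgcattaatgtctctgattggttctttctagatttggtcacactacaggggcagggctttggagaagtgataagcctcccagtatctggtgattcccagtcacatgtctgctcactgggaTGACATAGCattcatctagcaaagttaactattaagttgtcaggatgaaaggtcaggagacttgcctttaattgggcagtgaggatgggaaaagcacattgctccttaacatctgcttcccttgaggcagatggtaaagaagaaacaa
Gsta3: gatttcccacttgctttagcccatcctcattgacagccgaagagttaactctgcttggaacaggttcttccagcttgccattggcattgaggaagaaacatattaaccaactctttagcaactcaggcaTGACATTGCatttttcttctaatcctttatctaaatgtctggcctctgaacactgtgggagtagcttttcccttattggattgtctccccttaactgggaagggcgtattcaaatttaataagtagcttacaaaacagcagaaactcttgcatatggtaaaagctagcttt
Srxn1: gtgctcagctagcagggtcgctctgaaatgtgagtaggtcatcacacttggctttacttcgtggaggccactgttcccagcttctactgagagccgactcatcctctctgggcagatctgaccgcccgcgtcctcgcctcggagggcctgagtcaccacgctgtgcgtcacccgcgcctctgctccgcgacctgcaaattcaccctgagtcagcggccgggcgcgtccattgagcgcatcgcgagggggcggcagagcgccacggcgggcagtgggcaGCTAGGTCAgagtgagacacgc

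Abcc2, which pumps conjugates of glutathione into the urine, had 195 to 364 CPM (median 274) in UIRI+Nx d7, against 62.4 to 114 CPM (median 68) in UIRI d7 (log2 fold change 1.79, SE 0.21, adjusted p = 7.68e-06). Gsta4, a glutathione transferase for products of lipid oxidation, had 48.2 to 95.6 CPM (median 65.2) in UIRI+Nx d7 against 5.81 to 17.5 CPM (median 8.73) in UIRI d7 (log2 fold change 2.80, SE 0.26, adjusted p = 6.37e-07). Nqo1, a quinone reductase, had 62.8 to 88.8 CPM (median 70.3) in UIRI+Nx d7 against 6.43 to 19 CPM (median 12.7) in UIRI d7 (log2 fold change 2.48, SE 0.26, adjusted p = 1.57e-06). The 6 UIRI+Nx d7 libraries of Nqo1 lay close together and all above the 6 of UIRI d7. Cbr1, a carbonyl reductase, had 93 to 155 CPM (median 119.5) in UIRI+Nx d7 against 31.2 to 59.1 CPM (median 35.8) in UIRI d7 (log2 fold change 1.56, SE 0.19, adjusted p = 1.55e-05), and Abcc2 and Gsta4 also did not overlap. Gsta genes are near copies of each other, and 3′ reads may be shared among them. Other members of the pathway did not pass, among them Hmox1, heme oxygenase, at a log2 fold change of 0.40 and Gclm, a subunit that limits glutathione synthesis, at 0.15. Control medians were 48.1 CPM for Nqo1, 21.9 CPM for Gsta4 and 29.9 CPM for Cbr1, each lower than any UIRI+Nx d7 library for its gene. For Abcc2 the Control median was 235 CPM, inside the range of UIRI+Nx d7 and above every UIRI d7 library.

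In the distal nephron, which tunes salt, calcium and water, genes of several segments were higher. Of 21 tested genes of the distal convoluted and connecting tubule 5 were higher, 0 were lower and the median was 0.33. Calb1, the calcium buffer calbindin, had 243 to 538 CPM (median 351) in UIRI+Nx d7, against 31 to 59.7 CPM (median 47.8) in UIRI d7 (log2 fold change 2.94, SE 0.28, adjusted p = 6.37e-07), a gap without overlap. S100g, a smaller calcium buffer, had 520.3 to 703 CPM (median 588) in UIRI+Nx d7 against 165 to 417 CPM (median 229) in UIRI d7 (log2 fold change 1.23, SE 0.18, adjusted p = 0.000121). Both calcium buffers stayed below their Control medians of 628 CPM for Calb1 and 1899 CPM for S100g. Kcnj10, a basolateral potassium channel, had 25.9 to 44 CPM (median 30.8) in UIRI+Nx d7 against 8.89 to 14.1 CPM (median 12.7) in UIRI d7 (log2 fold change 1.43, SE 0.15, adjusted p = 1.57e-06). Klk1, tissue kallikrein, had 953 to 1259 CPM (median 1089.7) in UIRI+Nx d7 against 150.3 to 447 CPM (median 323) in UIRI d7 (log2 fold change 1.82, SE 0.26, adjusted p = 7.3e-05), though kallikrein genes are near copies and may share reads. In all of these genes every UIRI+Nx d7 library exceeded every UIRI d7 library. Egf, a growth factor of the same segments, did not pass, with 5.99 to 42 CPM (median 15.5) in UIRI+Nx d7 and 12.5 to 24.3 CPM (median 17.4) in UIRI d7 (log2 fold change 0.09, SE 0.30, adjusted p = 0.91), against a Control median of 603 CPM. Kl, which encodes klotho, did not pass either, with 20.2 to 113 CPM (median 51.2) in UIRI+Nx d7 and 26.5 to 98.2 CPM (median 52.9) in UIRI d7 (log2 fold change 0.12, SE 0.36, adjusted p = 0.895).

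Of 18 thick ascending limb genes 3 were higher, 0 were lower and the median was 0.45. Sostdc1, a secreted inhibitor of Wnt and BMP signals, had 103 to 269 CPM (median 149.9) in UIRI+Nx d7 against 61.6 to 88.2 CPM (median 77.6) in UIRI d7 (log2 fold change 1.11, SE 0.20, adjusted p = 0.00125). Its groups did not overlap. Umod, uromodulin, did not pass, with 647 to 1464 CPM (median 815) in UIRI+Nx d7 and 775 to 1059 CPM (median 889) in UIRI d7 (log2 fold change 0.13, SE 0.23, adjusted p = 0.806). Summed over the 18 markers the limb gave 2301 to 3614 CPM in UIRI+Nx d7 and 1715 to 2238 CPM in UIRI d7, and the 21 distal markers gave 3579 to 4711 CPM in UIRI+Nx d7 and 2122 to 2822 CPM in UIRI d7. Much of the gap between the distal sums comes from Klk1, S100g and Calb1, called above, while Egf and Kl of the same list did not pass. RNA came from a frozen slice of the kidney pole, and the part that the mix of segments had in these results was not tested.

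Of 16 principal cell genes of the collecting duct 4 were higher, 1 was lower and the median was 0.72, with 7 higher without UIRI d7 replicate 1. Scnn1a, a subunit of the sodium channel ENaC, had 31 to 134 CPM (median 53.8) in UIRI+Nx d7 against 13 to 45.2 CPM (median 21) in UIRI d7 (log2 fold change 1.43, SE 0.30, adjusted p = 0.00418). Sgk1, the kinase through which aldosterone keeps that channel at the membrane, had 122 to 219 CPM (median 153) in UIRI+Nx d7 against 32.2 to 134 CPM (median 37.2) in UIRI d7 (log2 fold change 1.59, SE 0.30, adjusted p = 0.00146). Both overlapped, Sgk1 through UIRI d7 replicate 6 alone, at 134 CPM. Kcne1, a potassium channel subunit, had 9.39 to 28.2 CPM (median 14.4) in UIRI+Nx d7 against 5.25 to 8.37 CPM (median 6.2) in UIRI d7 (log2 fold change 1.33, SE 0.23, adjusted p = 0.0008), without overlap. Aqp2, the water channel under vasopressin, did not pass, with 200.1 to 693 CPM (median 366) in UIRI+Nx d7 and 118 to 332 CPM (median 148) in UIRI d7 (log2 fold change 1.16, SE 0.43, adjusted p = 0.11). Of 16 genes of the intercalated cell, which secretes acid, 1 was higher. That gene, Atp6v0d2, a proton pump subunit, had 18.4 to 31.3 CPM (median 24.3) in UIRI+Nx d7 against 6.41 to 14.9 CPM (median 12.1) in UIRI d7 (log2 fold change 1.13, SE 0.22, adjusted p = 0.00166), without overlap.

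Vitamin D is activated and destroyed in the proximal tubule, and genes for both steps were higher. Of 16 genes of phosphate, calcium and vitamin D 4 were higher and 0 were lower, 2 of them being the calcium buffers above. Cyp27b1, which makes active vitamin D, had 1.25 to 19.6 CPM (median 6.04) in UIRI+Nx d7 against 0 to 1.72 CPM (median 1.32) in UIRI d7 (log2 fold change 2.95, SE 0.72, adjusted p = 0.0124). The highest libraries were UIRI+Nx d7 replicates 2 and 3, and replicate 6 fell within the range of UIRI d7. Cyp24a1, which degrades it, had 40.2 to 102 CPM (median 68.5) in UIRI+Nx d7 against 2.41 to 33 CPM (median 22.6) in UIRI d7 (log2 fold change 1.74, SE 0.51, adjusted p = 0.0386), without overlap. Its call was narrow, with an adjusted p of 0.0347 to 0.0857 when libraries were left out in turn, above 0.05 without any of UIRI+Nx d7 replicates 1, 2, 3 or 5 or UIRI d7 replicates 2, 3, 4 or 5. It was 0.0903 with the library block as a covariate, and 0.0668 without UIRI+Nx d7 replicates 5 and 6. Slc34a1, the main phosphate transporter of the proximal tubule, did not pass, with 839 to 2419.7 CPM (median 1259.7) in UIRI+Nx d7 and 1284 to 2296 CPM (median 1462) in UIRI d7 (log2 fold change -0.10, SE 0.22, adjusted p = 0.852).

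Transporters and enzymes that define the proximal tubule moved both ways. Of 50 genes 6 were higher and 3 were lower, with a median of 0.24, and 6 were lower without UIRI+Nx d7 replicate 1. G6pc, counted above among the genes of glucose and ammonia production, is also one of these higher genes. Other lists share members as well, so their counts are not independent. Ccl5 is in the lists of T and NK cells and of chemokines, and Gsta4 in those of NRF2 targets and of androgen. Slc5a12, a lactate transporter, had 82.2 to 149 CPM (median 95.5) in UIRI+Nx d7 against 33 to 57.6 CPM (median 45.8) in UIRI d7 (log2 fold change 1.23, SE 0.20, adjusted p = 0.000339), without overlap. Kap, an androgen-regulated protein of the proximal tubule, had 610.2 to 1394 CPM (median 1098) in UIRI+Nx d7, against 1107 to 10784 CPM (median 5943) in UIRI d7 (log2 fold change -2.43, SE 0.40, adjusted p = 0.00048). Some genes singled out UIRI d7 replicates 5 and 6, which were lowest of their group for Kap, Slco1a1, Inmt and Cd74 and highest for Gldc, Slc6a19 and Cd163. For Kap these libraries, at 1107 and 1360.1 CPM, lay within the range of UIRI+Nx d7, and the other 4 UIRI d7 libraries lay above it. Slco1a1, an androgen-dependent organic anion transporter, had 1.75 to 6.74 CPM (median 2.35) in UIRI+Nx d7 against 1.16 to 31.6 CPM (median 13.6) in UIRI d7 (log2 fold change -2.34, SE 0.57, adjusted p = 0.0124). It overlapped through UIRI d7 replicates 5 and 6, and its adjusted p was 0.0765 without UIRI+Nx d7 replicates 5 and 6. Lrp2, the endocytic receptor megalin, did not pass, with 173 to 1137 CPM (median 408) in UIRI+Nx d7 and 259.8 to 626 CPM (median 403) in UIRI d7 (log2 fold change 0.31, SE 0.35, adjusted p = 0.685). Of the 18 genes known to follow androgen here, 2 were higher and 3 were lower, with 5 lower without UIRI+Nx d7 replicate 1.

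Dnase1, the secreted nuclease that digests free DNA, had 4.1 to 19 CPM (median 5.72) in UIRI+Nx d7 (chromosome 16, 4036942 to 4040024 in GRCm38), against 37 to 115 CPM (median 80.6) in UIRI d7 (log2 fold change -3.32, SE 0.34, adjusted p = 1.57e-06), with medians of 124 CPM in UIRI d3 and 679.8 CPM in Control. Replicate 1 was the highest of UIRI+Nx d7 and below every UIRI d7 library. Inmt, a methyltransferase of indole amines, had 3.91 to 12.4 CPM (median 6.08) in UIRI+Nx d7 against 3.6 to 74.2 CPM (median 57.6) in UIRI d7 (log2 fold change -2.69, SE 0.51, adjusted p = 0.00168), with a Control median of 707 CPM. UIRI d7 replicates 5 and 6 were at 5.95 and 3.6 CPM, as low as UIRI+Nx d7, and the other 4 libraries lay above all of UIRI+Nx d7. Cyp2d12, a cytochrome P450, had 0.249 to 2.7 CPM (median 1.04) in UIRI+Nx d7 against 3.06 to 24.1 CPM (median 6.17) in UIRI d7 (log2 fold change -2.97, SE 0.56, adjusted p = 0.00153), without overlap. Of the 25 tested genes of the list of sterol, bile acid and xenobiotic enzymes 6 were higher and 2 were lower, which are Dnase1 and Inmt. Dnase1 is a nuclease that was placed in that list, and the lists were chosen with earlier results of these data known. The lower count is therefore no result apart from these 2 genes. Fmo1, a flavin monooxygenase, had 91.9 to 181 CPM (median 144) in UIRI+Nx d7 against 48.2 to 83 CPM (median 64) in UIRI d7 (log2 fold change 1.12, SE 0.22, adjusted p = 0.00218), and Aldh1a1, a retinal dehydrogenase, had 15.5 to 36.3 CPM (median 21.5) in UIRI+Nx d7 against 5.1 to 12.1 CPM (median 7.04) in UIRI d7 (log2 fold change 1.67, SE 0.33, adjusted p = 0.00218). Both of these separated the groups.

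A set of genes had its highest median in UIRI d7 among the 4 groups of the cohort. Stra6, the receptor that takes vitamin A from its plasma carrier, had 2.5 to 11.2 CPM (median 6.47) in UIRI+Nx d7, against 22.9 to 52.3 CPM (median 38.3) in UIRI d7 (log2 fold change -2.62, SE 0.31, adjusted p = 1.12e-05), with medians of 6.54 CPM in UIRI d3 and 1.52 CPM in Control. Serpina6, the plasma carrier of glucocorticoids, had 0.3 to 2.32 CPM (median 0.687) in UIRI+Nx d7 against 4.71 to 21.6 CPM (median 9.54) in UIRI d7 (log2 fold change -3.45, SE 0.50, adjusted p = 8.14e-05), with medians of 0.736 CPM in UIRI d3 and 0.0426 CPM in Control. Defb36, a beta defensin, had 0.543 to 2.49 CPM (median 1.86) in UIRI+Nx d7 against 6.55 to 23.4 CPM (median 9.98) in UIRI d7 (log2 fold change -3.0, SE 0.46, adjusted p = 0.000196), with medians of 3.91 CPM in UIRI d3 and 0.0609 CPM in Control. In these genes every UIRI+Nx d7 library was below every UIRI d7 library. Ltb, lymphotoxin beta, had 0.55 to 2.49 CPM (median 1.28) in UIRI+Nx d7 against 3.76 to 14.7 CPM (median 7.93) in UIRI d7 (log2 fold change -2.52, SE 0.38, adjusted p = 0.000135). Mgl2, a lectin of dendritic cells and macrophages, had 1.83 to 10.4 CPM (median 3.77) in UIRI+Nx d7 against 18.9 to 53.6 CPM (median 33.7) in UIRI d7 (log2 fold change -2.73, SE 0.51, adjusted p = 0.00153). Clec4b1, a lectin of dendritic cells, had 1.36 to 4.64 CPM (median 2.12) in UIRI+Nx d7 against 5.24 to 30.4 CPM (median 19.3) in UIRI d7 (log2 fold change -2.89, SE 0.41, adjusted p = 6.24e-05). The leukocyte genes likewise did not overlap between the groups.

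Cd72, a lectin of B cells and macrophages, had 3.25 to 15.1 CPM (median 6.53) in UIRI+Nx d7 against 22.4 to 53.8 CPM (median 39.7) in UIRI d7 (log2 fold change -2.34, SE 0.32, adjusted p = 5.45e-05). Aplnr, the apelin receptor, had 0.17 to 3.48 CPM (median 0.693) in UIRI+Nx d7 against 4.48 to 10.2 CPM (median 6.5) in UIRI d7 (log2 fold change -2.37, SE 0.47, adjusted p = 0.00232). Mybpc2, a myosin-binding protein of fast muscle, had 0.34 to 1.58 CPM (median 0.692) in UIRI+Nx d7 against 3.71 to 11 CPM (median 4.61) in UIRI d7 (log2 fold change -2.83, SE 0.52, adjusted p = 0.00134). All 3 were lower in every UIRI+Nx d7 library. Among genes that rose, Tmem252, a transmembrane protein, had 443 to 1224 CPM (median 813) in UIRI+Nx d7, against 57.2 to 199.8 CPM (median 136) in UIRI d7 (log2 fold change 2.62, SE 0.31, adjusted p = 9.72e-06), with a Control median of 180.0 CPM below every UIRI+Nx d7 library. Cwh43, which remodels lipid anchors, had 14.5 to 35.8 CPM (median 28) in UIRI+Nx d7 against 3.06 to 9.53 CPM (median 5.15) in UIRI d7 (log2 fold change 2.26, SE 0.26, adjusted p = 6.96e-06). Neither gene overlapped between the groups.

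In cholesterol synthesis 5 of 25 genes were higher and 0 lower, with a median of 0.35. Insig1, which holds back the sterol sensor, had 37.4 to 62.5 CPM (median 42.8) in UIRI+Nx d7 against 11.9 to 25.8 CPM (median 13.6) in UIRI d7 (log2 fold change 1.54, SE 0.25, adjusted p = 0.000434), without overlap. Hsd17b7, a late enzyme of the pathway, had 30 to 54.1 CPM (median 45.3) in UIRI+Nx d7 against 15.3 to 30.1 CPM (median 23.3) in UIRI d7 (log2 fold change 0.97, SE 0.17, adjusted p = 0.000817), with a small overlap. Of 20 circadian clock and output genes 3 were higher and 0 lower. Hlf, a transcription factor under clock control, had 63.7 to 92.3 CPM (median 89.6) in UIRI+Nx d7 against 30.2 to 72.4 CPM (median 37.6) in UIRI d7 (log2 fold change 1.0, SE 0.18, adjusted p = 0.00102). Usp2, a clock-controlled protease of ubiquitin, had 145 to 384 CPM (median 283) in UIRI+Nx d7 against 84.1 to 171 CPM (median 126) in UIRI d7 (log2 fold change 1.14, SE 0.28, adjusted p = 0.0132). Both overlapped, and the clock genes Dbp (log2 fold change -0.03, SE 0.34, adjusted p = 0.972) and Nr1d1 (log2 fold change -0.19, SE 0.34, adjusted p = 0.821) did not pass.

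Of the 17 tested genes of the renin-angiotensin system and other vasoactive signals 2 were higher and 3 were lower, and none remained without UIRI+Nx d7 replicates 5 and 6. Ace, which makes angiotensin II, had 4.56 to 8.43 CPM (median 6.37) in UIRI+Nx d7 against 6.77 to 20.4 CPM (median 16) in UIRI d7 (log2 fold change -1.18, SE 0.29, adjusted p = 0.0124). Its groups overlapped, and its adjusted p was 0.0539 without those 2 replicates. The 2 higher calls dropped to 0 or 1 without any of UIRI+Nx d7 replicates 1, 3, 5 or 6 or UIRI d7 replicates 1, 2, 4 or 6.

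Genes of proliferation and scar gave few calls. None of 46 genes of DNA replication passed in edgeR, where 7 were lower and 2 higher at an unadjusted p under 0.05, and DESeq2 called 2 lower. Of 50 genes of mitosis 1 passed in edgeR. That gene, Top2a, a topoisomerase, had 31.1 to 74.4 CPM (median 53.2) in UIRI+Nx d7 against 51.6 to 139.9 CPM (median 91.2) in UIRI d7 (log2 fold change -0.80, SE 0.24, adjusted p = 0.0392), with overlap. It passed when UIRI+Nx d7 replicates 1 or 5 or UIRI d7 replicate 5 were left out, and lost the call without any other single library, with an adjusted p of up to 0.113. The proliferation marker Mki67 had 6.3 to 14.9 CPM (median 10.3) in UIRI+Nx d7 and 3.32 to 21.2 CPM (median 11.8) in UIRI d7 (log2 fold change -0.15, SE 0.33, adjusted p = 0.854). None of 30 collagen genes passed in edgeR, where 6 were higher and 3 lower at an unadjusted p under 0.05 and 2 were called higher without UIRI+Nx d7 replicate 1. DESeq2 called 2 collagen genes lower. Col1a1, the main fibrillar collagen, had 661 to 1182 CPM (median 782) in UIRI+Nx d7 and 464 to 809.7 CPM (median 605) in UIRI d7 (log2 fold change 0.40, SE 0.19, adjusted p = 0.223). Acta2, the smooth muscle actin of myofibroblasts, had 141 to 376 CPM (median 216) in UIRI+Nx d7 and 171 to 521 CPM (median 247) in UIRI d7 (log2 fold change -0.26, SE 0.28, adjusted p = 0.664). Of 30 other matrix genes 3 were lower, the largest being Fbln1, a fibulin, with 15.8 to 26.8 CPM (median 18.9) in UIRI+Nx d7 against 32.8 to 75.5 CPM (median 38.7) in UIRI d7 (log2 fold change -1.24, SE 0.26, adjusted p = 0.00395), without overlap. The endothelial marker Pecam1 did not pass (log2 fold change -0.29, SE 0.25, adjusted p = 0.57).

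The groups of the same name in the second cohort, which shares no library with the first, were set beside these values. There 814 of 15543 genes passed (5.24%), 401 higher in WT UIRI+Nx d7 (2.58%) and 413 lower (2.66%). Of genes tested in both cohorts, 297 passed in both in the same direction, which is 29.0% of the 1024 that passed in the first and 36.9% of the 804 that passed in the second, and 0 passed in opposite directions. The sign in the second cohort was that of the first for 945 of the 1024 genes (92.3%), beside 59.2% of all genes tested in both. Dnase1 had 8.21 to 18.8 CPM (median 13.7) in WT UIRI+Nx d7 against 90 to 165 CPM (median 124) in WT UIRI d7 (log2 fold change -3.26, adjusted p = 1.62e-06). Stra6 had 2.04 to 8.06 CPM (median 4.84) in WT UIRI+Nx d7 against 23.7 to 47.3 CPM (median 32.4) in WT UIRI d7 (log2 fold change -2.86, adjusted p = 0.000212). Both separated the WT groups without overlap. Trbc2 had 0.16 to 1.18 CPM (median 0.291) in WT UIRI+Nx d7 against 2.45 to 8.69 CPM (median 5.72) in WT UIRI d7 (log2 fold change -3.50, adjusted p = 0.000277). Slc38a3 had 35.2 to 110.0 CPM (median 77.2) in WT UIRI+Nx d7 against 7.67 to 19.1 CPM (median 9.87) in WT UIRI d7 (log2 fold change 2.75, adjusted p = 1.7e-05). Gldc had 126 to 182 CPM (median 153) in WT UIRI+Nx d7 against 17.8 to 36.4 CPM (median 27.1) in WT UIRI d7 (log2 fold change 2.49, adjusted p = 6.59e-07). Those groups again did not overlap.

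**Figure D4:**
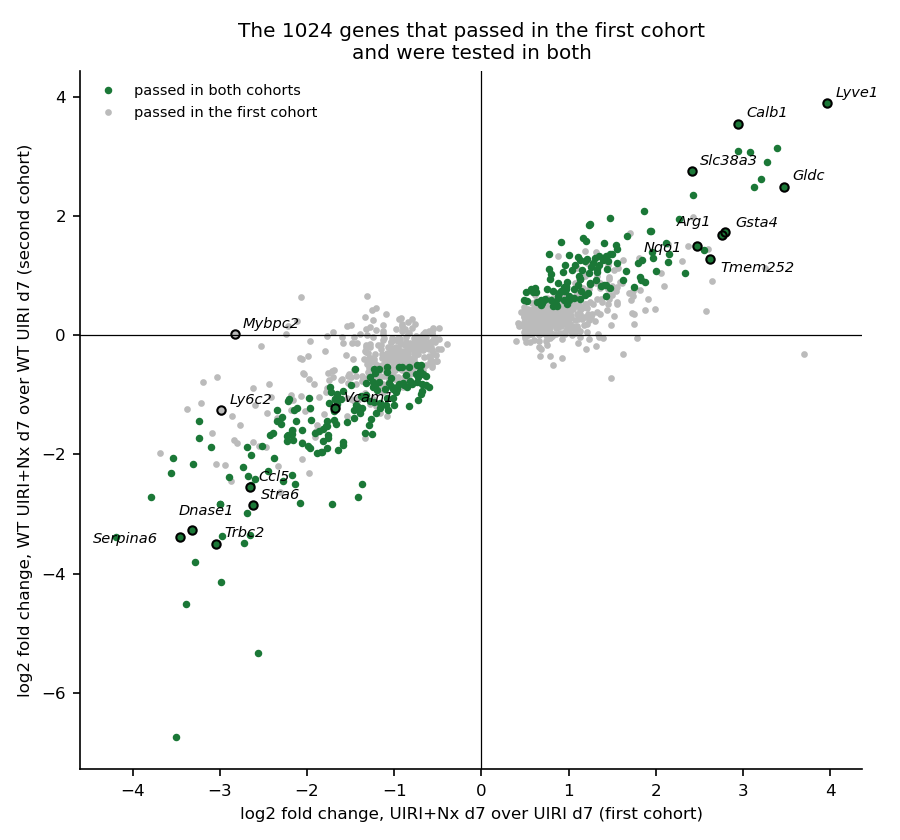
Log2 fold change after nephrectomy in the second cohort (vertical) against the first (horizontal) for the 1024 genes that passed in the first cohort and were tested in both, one point a gene, green where the second cohort also passed. The 297 green points lie in the lower left and the upper right, and Mybpc2 lies on the horizontal line at 0.

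Lcn2 passed in the second cohort, with 225 to 397 CPM (median 325) in WT UIRI+Nx d7 against 105 to 262 CPM (median 136) in WT UIRI d7 (log2 fold change 1.08, adjusted p = 0.00565), as did Aqp2 (log2 fold change 1.5, adjusted p = 0.00401) and Cdkn1a (log2 fold change 0.76, adjusted p = 0.0103), which had not passed in the first. Mki67 passed there as well (log2 fold change 0.74, adjusted p = 0.0206), whereas Top2a (log2 fold change 0.26, adjusted p = 0.233) and Mybpc2 (log2 fold change 0.02, adjusted p = 0.984) did not. The interaction of nephrectomy with cohort was tested over all 40 grouped libraries and 16606 genes, and 0 genes passed in edgeR, 1411 at an unadjusted p under 0.05. DESeq2 called 4 in the same test, Rgl1, Mybpc2, Acot4 and Gm4952, named after their values were seen, with Mybpc2 at a log2 difference of first minus second cohort of -2.87 (adjusted p = 0.0309). For Lcn2 the interaction had an adjusted p of 0.99 and for Mki67 0.576, so no difference in these genes was detected between cohorts. Without WT UIRI+Nx d7 replicate 2, 328 genes passed in the second cohort. By list, beside a median of 0.00322 over all genes, T and NK cell genes had a median of -2.01 there with 8 lower and 0 higher, and failed repair genes -0.83 with 10 lower and 0 higher. The proximal tubule transporters had a median of -0.39 with 6 higher and 10 lower, and 7 genes of mitosis were higher and 0 lower. Of the mitochondrial genome 0 of 10 genes passed there in edgeR, with a median of 0.45, against 5 in the first cohort, while 6 were higher at an unadjusted p under 0.05 and DESeq2 called 4 higher. Of 70 nuclear genes of the respiratory chain 3 were higher, with a median of 0.12. Of 37 interferon response genes 2 were lower, with a median of -0.33, and of 13 class II genes 4 were lower, with a median of -0.46. Tubular injury genes had 5 higher and 4 lower, and NRF2 targets 9 higher and 2 lower. Whether these list counts differ between the cohorts was not tested.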

How the data were processed

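RNA from a frozen slice of the kidney pole was made into 3′ end libraries with QuantSeq 3′ FWD from 500 ng of RNA, per the labels' protocols. The authors deposited whole-number counts per gene in one table of 48795 genes, and 48349 carry a symbol. The submitters' processing notes name Trimmomatic, STAR 2.7.11b, HTSeq 0.6.1 and the builds GRCm38, mm10 and GRCm39, with no role given. Which of these builds and which strand setting made the counts is not given in the sources used here, so reads of overlapping and antisense genes may be mixed. Gene coordinates come from the GENCODE annotation of GRCm38, and promoter windows from RefSeq.

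Counts were fitted with edgeR 4.0.16 (R 4.3.3) by its quasi-likelihood test over all 24 first-cohort libraries with TMM factors and filterByExpr, and Benjamini-Hochberg adjustment ran over every gene of the fit, with calls at 0.05. The SE is the fold change divided by the root of the F statistic. The second cohort was fitted over its 16 libraries, and the difference between cohorts over 40, with DESeq2 1.42.0 as an alternative. One library titled as undetermined reads was in no comparison. Total counts over the 12 libraries ran from 5090418 to 19039076, and mitochondrial share and other library measures were compared by exact permutation tests. No same-group pair agreed within sampling noise, with a chi-square of at least 23.5 per degree of freedom over 30 pairs.

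Genes were named by rule, as the 12 of largest change a direction above 5 CPM without overlap, up to 4 members a list, 6 by abundance a direction, and 28 fixed genes. The text describes part of these, some genes named by the rule are not reported here, and a few genes were chosen after their values were seen. The members and lists were chosen with earlier results of these data known. The steps were tested on simulated data.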

Additional observations from a re-analysis of the deposited data

Results flagged for a closer look

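A single library stood far from the other 5 of its group for the following values, in CPM except the hemoglobin share, by the gap to its nearest neighbour over the range of the group. Of 208 groups of values examined 20 were marked in this way, which is 9.62%, with 17 marks at the highest library and 3 at the lowest. Chance marks about 5% where values are independent and follow a normal distribution. CPM values can be skewed and genes of one library can move together, so these shares do not measure an excess over chance. Among metabolic and transport genes, UIRI+Nx d7 replicate 4 was the highest for Gldc at 507 and the lowest for Hlf at 63.7. UIRI d7 replicate 4 was the lowest for Pck1 at 25.8. For Kcne1 the highest library was UIRI+Nx d7 replicate 1 at 28.2, and UIRI d7 replicate 6 was the highest for Sgk1 at 134. For Insig1 the highest libraries were UIRI+Nx d7 replicate 6 at 62.5 and UIRI d7 replicate 5 at 25.8. For Slco1a1 it was UIRI+Nx d7 replicate 2 at 6.74.

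The library UIRI+Nx d7 replicate 1 was also the highest of its group for Dnase1 at 19.0, Trbc2 at 2.55, Cxcl9 at 5.10 and Cxcl10 at 17.9, and held 5 of the 20 marks. UIRI d7 replicate 1 was the highest of its group for Cxcl9 at 43.9 and Cxcl10 at 78.0. UIRI+Nx d7 replicate 4 was the highest for C3 at 428, and its hemoglobin share was 0.0819% of counts. UIRI d7 replicate 4 was the highest for Sema5a at 472. For Cd44 the lowest library was UIRI+Nx d7 replicate 6 at 39.3, which was the highest for Col1a1 at 1182, and UIRI d7 replicate 5 was the highest for Acta2 at 521.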

How the results depend on the processing

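Of the 82 described genes that passed, all kept their sign under every alternative that tested them. Genes named by size of change or by adjusted p were picked from the main fit, and the alternatives reuse its libraries. Kept signs and calls are therefore no independent support for these genes. With any single library left out 77 kept their call, and with the library block as a covariate 81 did. Under all alternatives that tested them, other than block 1a, 63 kept it, and within block 1a 37 did. A gene that an alternative did not test was counted as kept there. Of the 97 described genes tested in the main fit, 87 were tested with at least 5 CPM in 6 libraries. With mitochondrial transcripts left out 95 were tested. Of all genes, 1040 passed (497 higher, 543 lower), against 586 (271, 315) with the 12 libraries alone, 131 (66, 65) within block 1a, and 663 (330 lower) without UIRI+Nx d7 replicates 5 and 6. With the library block as a covariate 1359 passed (615 higher, 744 lower), and in DESeq2 1486 (701 higher, 785 lower). With UIRI d7 replicate 4 left out of the fit of both groups, chosen after seeing the data, 316 were higher. Single libraries left out gave 695 to 1087 genes, 342 to 508 higher and 353 to 590 lower. Without TMM factors 29.9% of called genes were higher, beside 47.8%, and the median of all genes was -0.10.

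With the replicate number as a block in the 12 libraries, 331 genes passed (163 higher, 168 lower), and in the second cohort 506 of 814 over the 8 libraries with shared numbers. The numbers were not taken to pair libraries, since the correlation of same-numbered libraries was not over 0.1 for every number, being -0.116 to 0.464 in the first cohort (over 0.1 for 2 of 6) and 0.048 to 0.299 in the second (3 of 4), and 1 of 12 and 3 of 8 libraries correlated best with their own number. The second cohort gave 1249 genes in DESeq2 and 328 to 898 with single libraries left out. The cohort difference gave 4 genes in DESeq2 and 0 in edgeR. The mitochondrial difference of 1.86 percentage points lay between 1.65 and 2.11 with single libraries left out, with adjusted p up to 0.0779. The difference in total counts lay between -1143000 and 1549000, and in Gm42418 between -0.979 and 0.177 percentage points.

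The described genes that changed sign had not passed, and their log2 fold changes follow. Mki67 was 0.0693 and Kl -0.0558 without UIRI d7 replicate 4 in the fit of both groups. With the replicate block Egf was -0.108, Kl -0.0233 and Dbp 0.175. With the library block as a covariate Kl was -0.0518 and Dbp 0.131, and within block 1a Dbp was 0.767 and Nr1d1 0.0483. Single libraries left out placed Mki67 between -0.344 and 0.101, Acta2 between -0.445 and 0.0134, Egf between -0.318 and 0.274, Lrp2 between -0.0775 and 0.49, Slc34a1 between -0.284 and 0.0277, Kl between -0.144 and 0.361, Umod between -0.0176 and 0.23, Dbp between -0.207 and 0.456 and Nr1d1 between -0.388 and 0.0782. The cause of each change was not tested.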
